A study of Mus musculus with 96 samples.

Results

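The Zfp, Zkscan and Zscan genes are the mouse genes named as zinc finger proteins, and they were taken from every table by their symbols: Zfp, Zkscan or Zscan followed by a number. In all, 198 of them were listed in at least 1 of the 14 deposited tables, of 10221 gene symbols there. Of the 198, 185 were Zfp, 9 Zkscan and 4 Zscan genes, and 196 matched a RefSeq gene by symbol. RNA tables listed 16 of them, tables of captured methylated DNA listed 43, and bisulfite tables listed 169. Of 21896 protein-coding RefSeq genes, 7325 (33.5%) were in at least 1 bisulfite table, and 423 have names of this kind. How many members each assay could see is unknown, so the member counts are no result about the members. No member stood in both an RNA table and a captured-DNA table. That overlap was not counted over all genes, so its absence is no result about the members.

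All mice were C57Bl/6, with no transgene or deletion named in the labels, and they were either irradiated (Irr) or untreated controls (Ctrl) and fed either chow or a high fat diet (HFD). Satellite cells, which are muscle stem cells, were assayed for RNA, for methylated DNA caught by a methyl-CpG-binding domain (MBD capture) and for CpG methylation by reduced representation bisulfite sequencing (RRBS), with 6 libraries in each of the Ctrl chow, Ctrl HFD, Irr chow and Irr HFD groups. The stromal vascular fraction, the mixed cells of fat tissue other than fat cells, was profiled by RRBS with 6 Ctrl chow, 7 Ctrl HFD, 4 Irr chow and 7 Irr HFD libraries. The radiation dose, the sex and age of the mice, the fat depot and the time from irradiation to collection were not stated in the sources used, nor was it stated whether libraries came from separate animals. The authors' statistics were given for each comparison, with 0 columns of single libraries. No value per library, no depth and no standard deviation can therefore be shown. An RNA or MBD p-value weighs an effect against the spread between libraries, which may be technical. For RRBS a median p-value was given, and it was not read in that way.

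Zinc finger proteins fold short stretches of their chain around zinc ions, and in the common C2H2 type a row of such fingers reads DNA, each finger contacting a few bases. Many members also carry a KRAB domain, which recruits the corepressor Trim28 and, through it, the histone methyltransferase Setdb1 and heterochromatin proteins, a route known above all for silencing transposable elements. The name is not a guarantee of that function: Zfp36, Zfp36l1, Zfp36l2 and Zfp36l3 have CCCH fingers that bind AU-rich messenger RNA and promote its decay, and Zfp185 is a LIM-domain protein of the actin cytoskeleton. In mammals, KRAB genes lie in clusters of related copies. Of 423 protein-coding RefSeq genes with these names, 102 (24.1%) lie on chromosome 7 of the mouse, 47 (11.1%) on chromosome 17 and 42 (9.93%) on chromosome 13. The bisulfite members followed the same layout on chromosome 7, with 42 of 167 placed genes (25.1%), and held 16 (9.58%) on chromosome 17 and 9 (5.39%) on chromosome 13.

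RRBS reads methylation at CpG sites near cuts of the enzyme MspI, whose site is CCGG, so the sequence of a promoter decides whether it can be seen. RefSeq promoter windows of 300 bases around the annotated start (build GRCm38.p6, the mm10 assembly) were given for 352 genes with these names, and CCGG was present in 72.4% of them, against 52.6% of all 27025 promoters. CCGG reads the same on both strands. The windows held a median of 13 CpG sites, with quartiles of 8 and 20, against 7, with quartiles of 3 and 21, over all promoters. Among the 132 bisulfite members with a window, 81.1% held CCGG and the median was 18.5 CpG sites. Among the 220 genes with these names in no bisulfite table, 67.3% held CCGG and the median was 10 CpG sites. The listed genes thus had the higher median, with overlapping quartiles of 12 and 25 against 6 and 16.25. The number of CpG sites also bears on coverage in this assay, and the part of coverage in this difference was not tested. In 64 members a listed region overlapped the window, and all 302 region edges inside a window fell on a CpG, 130 on its C and 172 on its G. The assay reads CpG sites, so this is no result about the members. An edge listed in several tables was counted once for each.

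Promoters with listed regions in several tables are shown as sequence, on the gene's own strand from 5′ to 3′, with the bases covered by regions that the authors listed in any bisulfite table in capitals. The Zfp69 window (chr4:120951652-120951951, minus strand) was chosen because 21 listed regions from 3 satellite cell tables overlap it, some of them only 1 base long. It holds 32 CpG sites and 9 CCGG sites, and Zfp69 encodes a KRAB zinc finger protein known in mice as a candidate gene of a diabetes locus. The Zfp61 window (chr7:24299500-24299799, minus strand) was chosen because it was covered in 5 tables and both cell types, although it holds just 14 CpG sites and 1 CCGG site. The Zfp592 window (chr7:80993434-80993733, plus strand) belongs to the member with the most regions, 34 in all, of which 7 overlap this window. It holds 42 CpG sites. The Zfp618 window (chr4:62965317-62965616, plus strand), with 59 CpG sites, belongs to a gene that was listed in all 6 bisulfite tables and also in an RNA table.
Zfp69: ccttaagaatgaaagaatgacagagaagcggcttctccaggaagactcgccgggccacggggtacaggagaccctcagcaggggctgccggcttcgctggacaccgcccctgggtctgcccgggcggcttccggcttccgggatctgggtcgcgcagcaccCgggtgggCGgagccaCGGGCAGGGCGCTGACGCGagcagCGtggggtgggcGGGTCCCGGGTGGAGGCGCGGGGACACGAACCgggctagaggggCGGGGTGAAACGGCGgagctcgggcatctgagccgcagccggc
Zfp61: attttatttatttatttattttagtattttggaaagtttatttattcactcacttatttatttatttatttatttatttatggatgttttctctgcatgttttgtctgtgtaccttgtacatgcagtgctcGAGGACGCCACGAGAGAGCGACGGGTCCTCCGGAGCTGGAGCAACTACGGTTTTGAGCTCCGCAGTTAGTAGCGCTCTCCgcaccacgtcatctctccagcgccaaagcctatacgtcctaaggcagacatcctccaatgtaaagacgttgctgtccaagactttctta
Zfp592: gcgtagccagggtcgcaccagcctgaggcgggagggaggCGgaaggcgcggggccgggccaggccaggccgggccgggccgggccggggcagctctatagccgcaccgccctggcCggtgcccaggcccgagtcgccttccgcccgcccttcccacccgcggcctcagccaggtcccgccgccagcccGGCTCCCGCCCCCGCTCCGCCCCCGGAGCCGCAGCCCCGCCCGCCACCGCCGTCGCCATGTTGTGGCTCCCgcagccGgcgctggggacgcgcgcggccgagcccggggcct
Zfp618: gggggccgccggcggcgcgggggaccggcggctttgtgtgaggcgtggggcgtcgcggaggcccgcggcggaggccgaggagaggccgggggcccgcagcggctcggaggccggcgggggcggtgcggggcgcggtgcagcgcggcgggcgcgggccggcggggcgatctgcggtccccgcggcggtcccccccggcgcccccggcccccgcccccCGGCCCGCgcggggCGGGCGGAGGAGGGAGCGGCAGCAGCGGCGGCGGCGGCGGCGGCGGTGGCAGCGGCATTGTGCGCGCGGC

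The RNA comparison asked which genes differed between irradiated and control satellite cells. Over both diets, 7 members passed an adjusted p of 0.05 in the authors' deposited table, where 827 of 12371 tested genes (6.68%) did. Of these members 4 were higher in irradiated cells (all genes: 3.05%) and 3 were lower (all genes: 3.64%). Members made up 0.846% of the 827 genes, while genes with these names are 1.93% of the protein-coding RefSeq genes. How many members were among the tested genes is unknown, so neither share can be read as many or few. The median absolute log2 fold change was 0.51 in the 7 members and 0.54 in all genes that passed. Their abundance was lower, with a median of 2.83 log2 CPM (library-scaled read counts) against 4.88.

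The member that rose most was Zfp185, the LIM-domain protein. In the authors' deposited table its effect corresponded to a mean log2 fold change of 0.98 over the diets, a rise of 1.97-fold (approximate SE 0.26, adjusted p = 0.0102), at 2.83 log2 CPM. Its locus is chrX:72987360-73031543. Zfp704 and Zfp395 are C2H2 factors of the same small family, and in mice Zfp704 is also known as a glucocorticoid-induced gene. Zfp704 (chr3:9427020-9610085) was the most abundant of the 7 at 6.21 log2 CPM, and in the authors' deposited table it rose by 0.55 (approximate SE 0.15, adjusted p = 0.00943). Zfp395 (chr14:65358676-65398930) was the least abundant at 1.17 log2 CPM, and by the authors' deposited table it rose by 0.51 (approximate SE 0.17, adjusted p = 0.0468). The rises of these relatives lay within 1 approximate SE of each other. The fourth gene to rise was Zfp169 (chr13:48487647-48513436), a KRAB zinc finger gene, with 0.45 in the authors' deposited table (approximate SE 0.14, adjusted p = 0.0281).

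The genes that fell were C2H2 factors. Zfp583 (chr7:6316276-6330434), a KRAB zinc finger gene, fell by 0.55 in the authors' deposited table (approximate SE 0.15, adjusted p = 0.0129). Zfp691 (chr4:119169513-119173856) fell by 0.42 (approximate SE 0.13, adjusted p = 0.0247 in the authors' deposited table). Zfp110 (chr7:12834761-12850577), which encodes a binding partner of the p75 neurotrophin receptor, fell by 0.35 (approximate SE 0.11, adjusted p = 0.0300 in the authors' deposited table). These are falls of 1.47-fold, 1.33-fold and 1.28-fold, so every called member changed by less than 2-fold.

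A further 9 members stood between 0.05 and 0.1 in the authors' deposited table, which ends there, and none of them passed the threshold. Their values were 0.46 for Zfp618, 0.41 for Zfp36l2 and 0.36 for Zfp52, and -0.19 for Zfp131, -0.27 for Zfp672, -0.28 for Zfp322a, -0.32 for Zfp105, -0.37 for Zfp420 and -0.41 for Zfp286, by the authors' deposited table as mean log2 fold changes. ZNF618, the human counterpart of Zfp618, is known as a partner of the methylation reader UHRF2, Zfp36l2 promotes messenger RNA decay, Zfp131 carries a BTB domain, and human ZNF420 is known as a repressor of p53 target genes. With these 9 included, 7 of 16 members were higher (43.8%), against 48.6% of the 1695 genes listed (13.7% of tested genes). Reads shared between near-identical cluster copies could be assigned differently by another counting rule, and the rule used for such reads was not stated in the sources used. This applies first to Zfp322a and Zfp52, which have close copies.

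**Figure D1:**
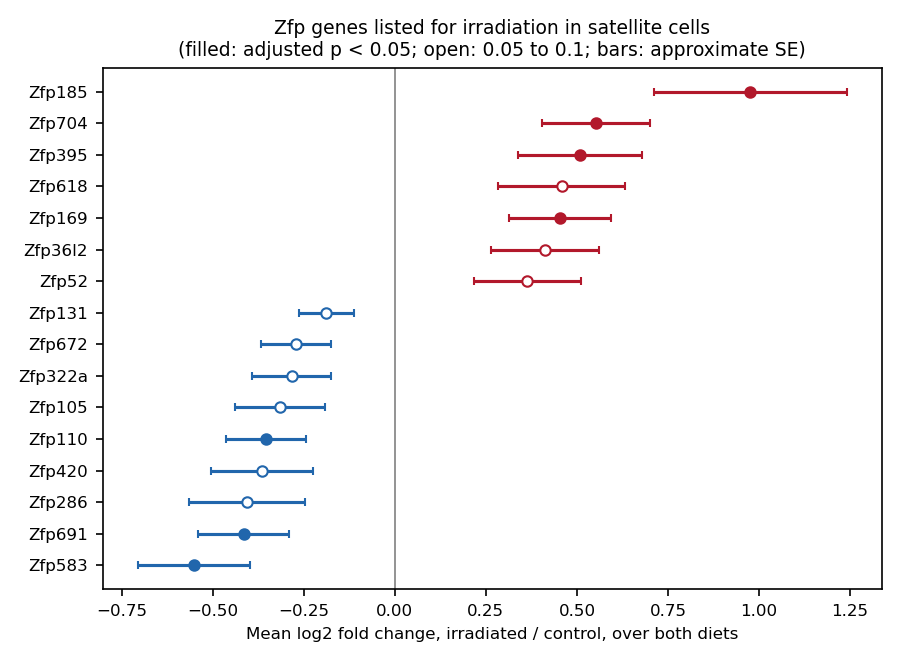
Mean log2 fold change (irradiated over control, x axis) of the 16 members in the satellite cell RNA table, computed from the authors' deposited table, with bars for the approximate standard error. Filled points passed an adjusted p of 0.05, open points did not. Zfp185 lies farthest from 0 at 0.98, and the 9 values below 0 lie between -0.19 and -0.55.

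The effect of irradiation on each diet stood in tables of its own. On chow, 0 members passed 0.05 in the authors' deposited table (edgeR), where 1.25% of tested genes did. At 0.1 the same table listed 1 member, Zfp691, and 2.6% of genes. Its log2 fold change on chow was -0.55 (approximate SE 0.18, adjusted p = 0.0873 in the authors' deposited table), and subtraction from the effect over both diets gives -0.28 on the high fat diet. On the high fat diet 0 members were listed in the authors' deposited table, where 8 genes (0.0647%) passed 0.05, and for diet in irradiated mice 0 members were listed, where 1 gene (0.00808%) passed. Because these tables end at an adjusted p of 0.1, members with an unadjusted p under 0.05 cannot be counted there. Whether an effect differed between the diets was not tested.

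The partners of KRAB repression, a list of 27 genes, had 2 members past 0.05 in the authors' deposited table, both higher, and 0 lower. That is 7.41% of the list, near the 6.68% of all tested genes, so the count is no result about the list. They were Trim33, a relative of Trim28, at 0.27 (approximate SE 0.09, adjusted p = 0.0394 in the authors' deposited table), and Atrx, a chromatin remodeller that deposits histone H3.3 in heterochromatin, at 0.26 (approximate SE 0.09, adjusted p = 0.0486 in the authors' deposited table). Trim28 and Setdb1 were not listed. Zinc finger factors with other names (Zbtb, Klf, Prdm and similar) had 12 genes listed, 10 higher and 2 lower (all genes: 823 and 872). The 3 past 0.05 were all higher (all genes: 377 higher and 450 lower). They were Klf8 at 0.59, Klf11 at 0.37 and Zbtb38 at 0.25, in the authors' deposited table. How many such factors were tested is unknown, so no share can be given. The difference between these families and the Zfp genes was not tested.

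Markers of cell types moved in the same comparison. Of 8 satellite cell and myoblast markers, 3 were listed in the authors' deposited table, all abundant (Myog at 10.7, Itga7 at 10.6 and Cdh15 at 9.10 log2 CPM), with Myog at -0.58 and Cdh15 at -0.46 past 0.05. Of 5 fibroblast markers, 3 fell past 0.05 (Col1a2 at -1.18, Dcn at -1.29 and Thy1 at -1.37 in the authors' deposited table). Macrophage and leukocyte markers had 2 of 5 lower, perivascular markers had 2 of 4 lower and Rgs5 higher, adipocyte markers had Scd1 lower, and 0 of 4 endothelial markers were listed in the authors' deposited table (edgeR, adjusted p under 0.1). Levels per library or group are not in the tables, and the part of cell composition in the Zfp values was not tested. In such bulk samples, fewer cells of a type and less RNA per cell cannot be told apart.

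Capture of methylated DNA covered promoters, CpG islands, CpG shores (the flanks of islands) and gene exons in satellite cells. The tables do not name the sides of their contrast, so a log2 fold change above 0 means higher on the side the authors coded as positive. Of the 373 promoters listed, 5 were members, 1 above 0 and 4 below (all promoters: 24.1% above 0). Zfp644 stood at 1.10 in the authors' deposited table (p = 0.000499). Below 0 stood Zfp64 at -0.73 (p = 0.00133), Zfp36l3, a rodent placental member of the CCCH group, at -0.69 (p = 0.00121), Zfp287 at -0.65 (p = 0.000280) and Zfp42, the pluripotency marker Rex1, at -0.51 (p = 4.61e-06), all in the authors' deposited table. These p-values are not adjusted, so no promoter is called here.

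Among 84 CpG islands listed, 0 were members (81% of all islands listed were above 0 in the authors' deposited table, edgeR with unadjusted p-values, and every listed region has a p under 0.05). Among 190 shores there were 4 members, 2 on each side (all shores: 34.2% above 0). Zfp703 (chr8:26974645-26976644), a corepressor-type factor of the same family as Zfp503, stood at 1.59 and Zfp653 at 1.37 in the authors' deposited table. Zfp945 stood at -0.75 and Zfp619 at -0.67 in the authors' deposited table. The Zfp653 shore was annotated as 3′ UTR. Its distance to the start of Zfp653 was given as -2156 bases, which runs to its far end at 22073501. A bisulfite region of Zfp653 ended at chr9:22071318, 27 bases inside the gene, and the shore began at 22071502. The shore thus lay just upstream of that gene and not in its 3′ UTR. The other 3 were annotated as distal intergenic, with Zfp619 at a given distance of 70866 bases from its start. The Zfp703 shore nevertheless came near its gene. A bisulfite region just after it, chr8:26976646-26976669, stood at a distance of -690 bases and was annotated as promoter.

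Exons held most members: 48 of 2455 entries (1.96%), from 36 genes. The entries are transcripts, and transcripts of a gene share nearly the same interval, so the gene is the better unit. Of the 36 genes, 13 were above 0 and 23 below. Of the 48 entries, 21 were above 0 (43.8%), against 66.2% of all exon entries listed. Zfp207, known for its role in spindle assembly, had the 4 highest entries, between 1.17 and 1.18 in the authors' deposited table. Zscan4c, of a cluster expressed in early embryos, followed at 1.01, and its value is uncertain because its copies are nearly identical. Zfp503 was lowest at -0.57, followed by Zfp146 at -0.54, Zfp42 at -0.49 and the transcripts of Zfp1 at -0.48 and -0.48, in the authors' deposited table. Zfp42 was thus below 0 in promoter and exon, and Zfp619 in shore and exon, as measured by the same libraries.

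The direction of the member exons followed their abundance completely. The 21 entries above 0 lay between 2.28 and 4.33 log2 CPM, and the 27 below 0 between 5.26 and 7.90, with no overlap, in the authors' deposited table. All exons listed had the same pattern less sharply: at or under 4.33 log2 CPM 93.9% were above 0, and from 5.26 on 13.0% were. In promoters the single member above 0 was also the least abundant, at 5.30 log2 CPM against 6.48 to 7.82 for the 4 below. In shores, the members above 0 lay at 4.17 and 4.60 and those below at 6.13 and 6.27. Over all promoters listed, 97.5% were above 0 at or under 5.30 log2 CPM, and 0.0% from 6.48 on. Over all shores listed, 94.5% were above 0 at or under 4.60 log2 CPM, and 0.0% from 6.13 on. The split by abundance is thus no trait of the members. The part of abundance in these directions was not tested.

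**Figure D2:**
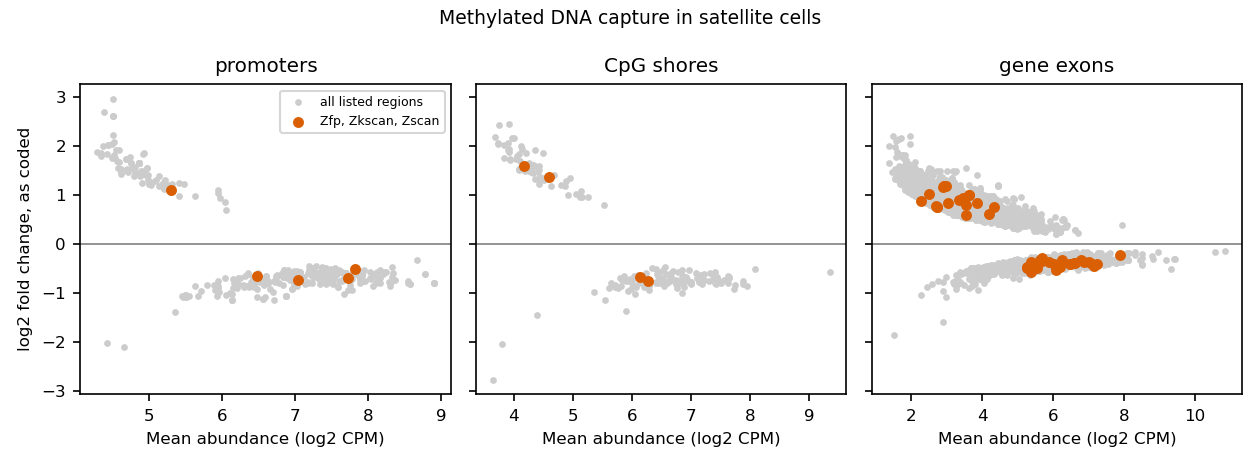
Log2 fold change as the authors coded it (y axis) against mean abundance in log2 CPM (x axis) for listed promoters, CpG shores and exons from methylated DNA capture in satellite cells. Members are orange and all listed regions grey. In exons, members above 0 end at 4.33 log2 CPM and members below 0 begin at 5.26.

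Among the KRAB partners, captured DNA listed the Dnmt1 promoter at -0.84 and exons of Mphosph8 at 1.02, Suv39h2 at 0.89, Atrx at 0.51 and Suv39h1 at -0.46 in the authors' deposited table. Atrx was therefore listed for both RNA and exon capture. No sign can be compared, because the capture contrast has no named sides.

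RRBS listed 836 regions of 169 members over 6 tables, which gave a radiation, a diet and an interaction contrast for each cell type. The tables do not say which mice are group 1 and group 2, so each value is a difference in methylation, group 1 minus group 2, in percentage points. The contrasts of a cell type were made from the same set of libraries, so their values are set side by side without a comparison. Symbols are those of the nearest annotated gene.

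In the stromal vascular fraction, the radiation table listed 125 regions of 75 members, 2.28% of its 5493 regions, and group 1 was higher in 61.6% of them (all regions: 60.7%). The diet table listed 177 regions of 92 members, 2.21% of 7997, with group 1 higher in 40.7% (all regions: 43.2%). The interaction table listed 35 regions of 30 members, 2.90% of 1207, with group 1 higher in 28.6% (all regions: 32.2%). In satellite cells, radiation had 245 regions of 104 members, 2.49% of 9827, with group 1 higher in 46.1% (all regions: 48.1%). Diet there had 235 regions of 99 members, 2.44% of 9617, with group 1 higher in 54.0% (all regions: 51.9%). The satellite cell interaction table had 19 regions of 18 members among 1057, with group 1 higher in 42.1% (all regions: 44.8%). In every table the members' split of directions lay within 4 percentage points of the split over all regions, so it is no result about the members.

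Most listed regions lay at promoters: between 88.1% and 93.2% of the members' regions by table, against 84.0% to 91.6% of all regions. Their sizes divided into very small and large differences. A difference of at least 10 percentage points was reached by 28.8% of the member regions for radiation in the stromal vascular fraction (all regions: 30.7%), 61.0% for diet (all: 60.4%) and 48.6% for the interaction (all: 41.2%). In satellite cells the shares were 52.2% for radiation (all: 51.9%), 44.3% for diet (all: 47.9%) and 26.3% for the interaction (all: 32.8%). A difference under 2 points was found in 68.0%, 33.3% and 51.4% of member regions in the stromal vascular fraction (radiation, diet, interaction) and in 42.0%, 48.5% and 57.9% in satellite cells. Over all regions these shares were 63.4%, 31.9% and 52.7%, and 41.3%, 45.0% and 58.7%, so they are no trait of the members. A listed region with a small difference is therefore common, such as the region over the start of Zfp618 for radiation in the stromal vascular fraction, at 0.139 points in the authors' deposited table.

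The large differences recurred at the same sizes in many genes. In the stromal vascular fraction, group 1 of the radiation table was higher by 10 points or more in 33 member regions, and 13 of them, from 13 genes, lay between 38 and 40 points (all regions: 523 of 1381). In the diet table the same interval held 23 of 53 member regions, from 21 genes (all regions: 647 of 2460). With group 2 higher in that diet table, 19 of 55 member regions lay between 18 and 20 points (all regions: 976 of 2372) and 21 between 20 and 22 points (all regions: 727). In satellite cells, for radiation, the interval of 32 to 34 points held 18 of 54 member regions with group 1 higher (all regions: 787 of 2346). With group 2 higher for radiation it held 19 of 74 (all regions: 760 of 2755). With group 1 higher for diet it held 23 of 58 (all regions: 740 of 2280). With group 2 higher for diet it held 10 of 46 member regions, and 15 lay between 34 and 36 points, where over all regions 630 and 586 of 2326 did. For example, Zfp598, a ubiquitin ligase that marks collided ribosomes, stood at 38.4 points for radiation in the stromal vascular fraction in the authors' deposited table, and Zfp367 also at 38.4. Why sizes recur was not tested, and they cannot be checked against single libraries here.

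**Figure D3:**
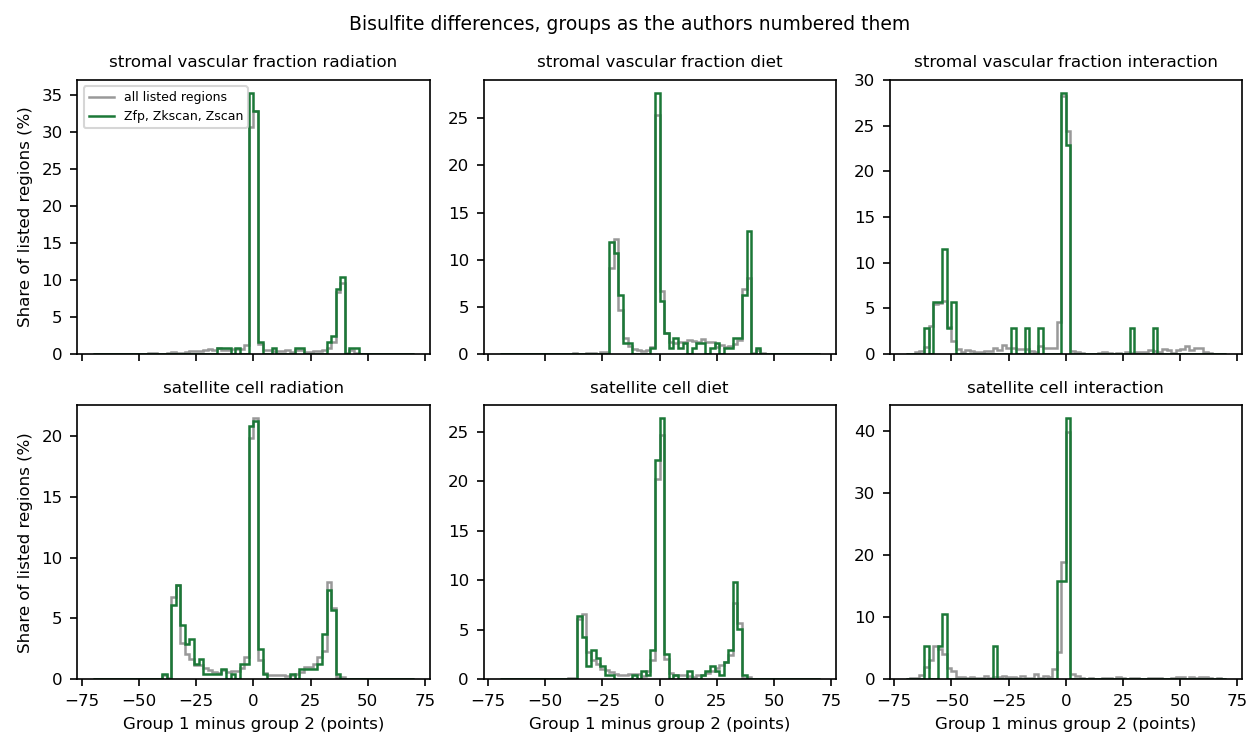
Share of listed RRBS regions (%, y axis) by difference in methylation, group 1 minus group 2 in percentage points (x axis, bins of 2 points), for members in green and all regions in grey, in 6 panels by cell type and contrast with separate y scales. Besides the peak near 0, members and all regions have peaks at 38 to 40 points in the stromal vascular fraction radiation and diet panels and at 32 to 34 points in the satellite cell ones. Below 0 in the satellite cell diet panel, the members' peak is at 34 to 36 points in size and that of all regions at 32 to 34.

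The widest member differences for radiation in the stromal vascular fraction had group 1 higher: Zkscan3, known in human cells as a repressor of autophagy genes, at 44.9 points, Zfp217 at 42.8 and Zfp598 at 38.4 in the authors' deposited table. The Zkscan3 region lay 12306 bases from the start, in intergenic sequence, and the Zfp217 region (chr2:170131132-170131284) covered its start. With group 2 higher stood Zfp777 at -14.8, Zfp735 at -12.1 and Zfp839 at -11.9 points, in the authors' deposited table. The Zfp777 region was 1 base long.

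For diet in the stromal vascular fraction, group 1 was higher by 43.5 points at Zfp217, 38.5 at Zfp131 and 38.5 at Zfp367, in the authors' deposited table. The widest differences with group 2 higher were nearly alike in size: -21.2 at Zfp687, -21.2 at Zfp704 and -21.1 at Zfp131. Zfp131 thus held both signs near its start, at chr13:119791143-119791143 and at chr13:119790955-119791027. In the interaction table, Zfp91, a ubiquitin ligase of NF-kappaB signalling, stood at -60.1, Zfp503 at -57.2 and Zfp623 at -56.1 in the authors' deposited table. Zfp735 stood at 39.7, Zfp839 at 29.6 and Zfp804a at 0.892 points. The sources used do not say what the sign of an interaction value stands for.

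In satellite cells, the radiation table had Zfp395 at 37.2 points, Zfp318 at 34.7 and Zfp354c at 34.5, and the diet table had Zfp395 at 36.4, Zfp318 at 34.6 and Zfp142 at 34.5, all with group 1 higher in the authors' deposited table. With group 2 higher, radiation had Zfp69 at -38.6 and -34.6 and Zfp362 at -34.6, and diet had Zfp69 at -34.6, Zfp280d at -34.6 and Zfp704 at -34.6. The interaction table had Zfp142 at -60.6, Zfp872 at -54.8 and Zkscan17 at -53.5 at one end. At the other end were Zfp30 at 0.319, Zfp69 at 0.134 and Zfp516, known in brown fat as an activator of Ucp1, at 0.129 points in the authors' deposited table.

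At the Zfp69 promoter the 10 regions listed for radiation and the 10 listed for diet in satellite cells lay within chr4:120951680-120951790 and at identical positions. In the radiation table the difference alternated from region to region along the chromosome, between near 0 and a large value with group 2 higher. The values in the authors' deposited table were 0.118, -34.6, 0.177, -32.4, 0.530, -31.7, 0.530, -32.8, 0.430 and -38.6 points. In the authors' deposited table for diet they were -34.6, 0.130, -34.4, 0.500, -31.9, 0.538, -31.9, 0.437, -32.8 and 0.364 points at the same places. Each region thus had a large difference in 1 of these tables and a difference under 1 point in the other.

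Regions next to each other that touch had opposite signs in every case over all members (20 of 20 pairs for radiation and 19 of 19 for diet in satellite cells, and over all regions 339 of 339 and 334 of 334). In the stromal vascular fraction the 4 touching member pairs for radiation and the 4 for diet were also opposite in sign (all regions: 37 of 37 and 48 of 48). If regions were formed by joining neighbouring sites of like sign, touching regions must differ in sign. How regions were formed was not stated in the sources used, so these counts are no result about the members. At Zfp69 in satellite cells, 3 borders between touching regions for radiation and 3 for diet fell inside a single CpG, between its C and its G. These bases mark the cytosines of the opposite strands. The first is the CpG at 120951680 and 120951681, where the authors' deposited table gave 0.118 and -34.6 points for radiation, and -34.6 and 0.130 for diet.

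**Figure D4:**
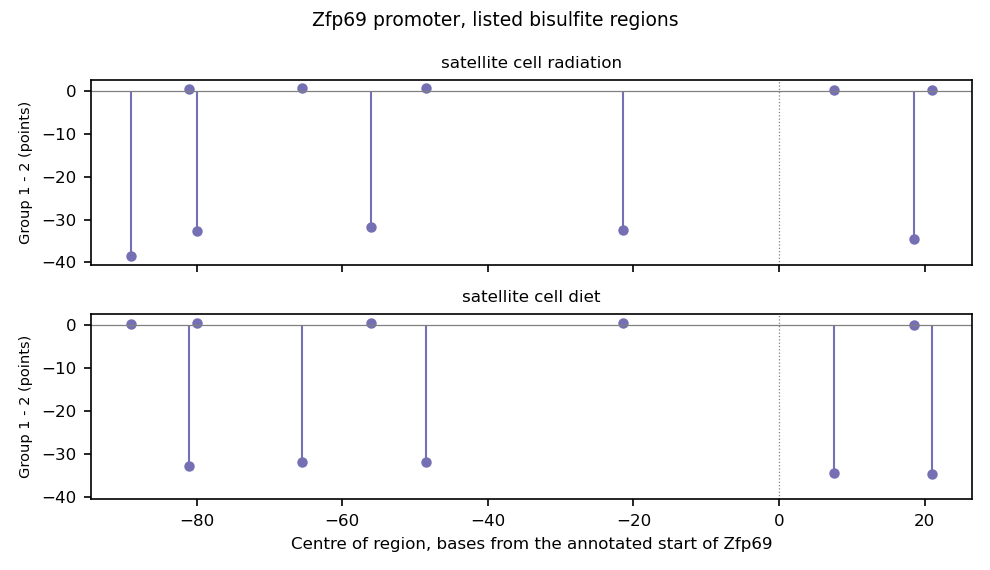
Difference in methylation (group 1 minus group 2, percentage points, y axis) of the regions listed at the Zfp69 promoter in satellite cells, by distance of the region's centre from the annotated start in bases (x axis), for radiation and diet. The regions with large values below 0 in the radiation panel lie near 0 in the diet panel, and the reverse.

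Zfp704 had 30 regions in all 6 tables, and it is also 1 of the 2 genes past 0.05 for RNA that had a bisulfite region, with Zfp395. Its regions lay from 9609104 to 9610073 on chromosome 3, within 1 kb of the start and inside the gene. In satellite cells, 5 neighbouring regions between 9609104 and 9609158 alternated as at Zfp69. They stood at 0.0536, -34.6, 0.0596, -34.6 and 0.0573 points for radiation and at -34.6, 0.0569, -34.6, 0.0601 and -34.6 for diet, in the authors' deposited table. Closer to the start, chr3:9609957-9609967 stood at 33.9 points for radiation in satellite cells, and the region that starts at the same base for diet, chr3:9609957-9610073, stood at 1.68 in the authors' deposited table. In the stromal vascular fraction the overlapping region at chr3:9609952-9609958 stood at 38.1 points for radiation and 38.2 for diet, in the authors' deposited table. One position listed for diet in both cell types, chr3:9609470-9609520, stood at -19.8 points in the stromal vascular fraction and 33.8 in satellite cells.

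**Figure D5:**
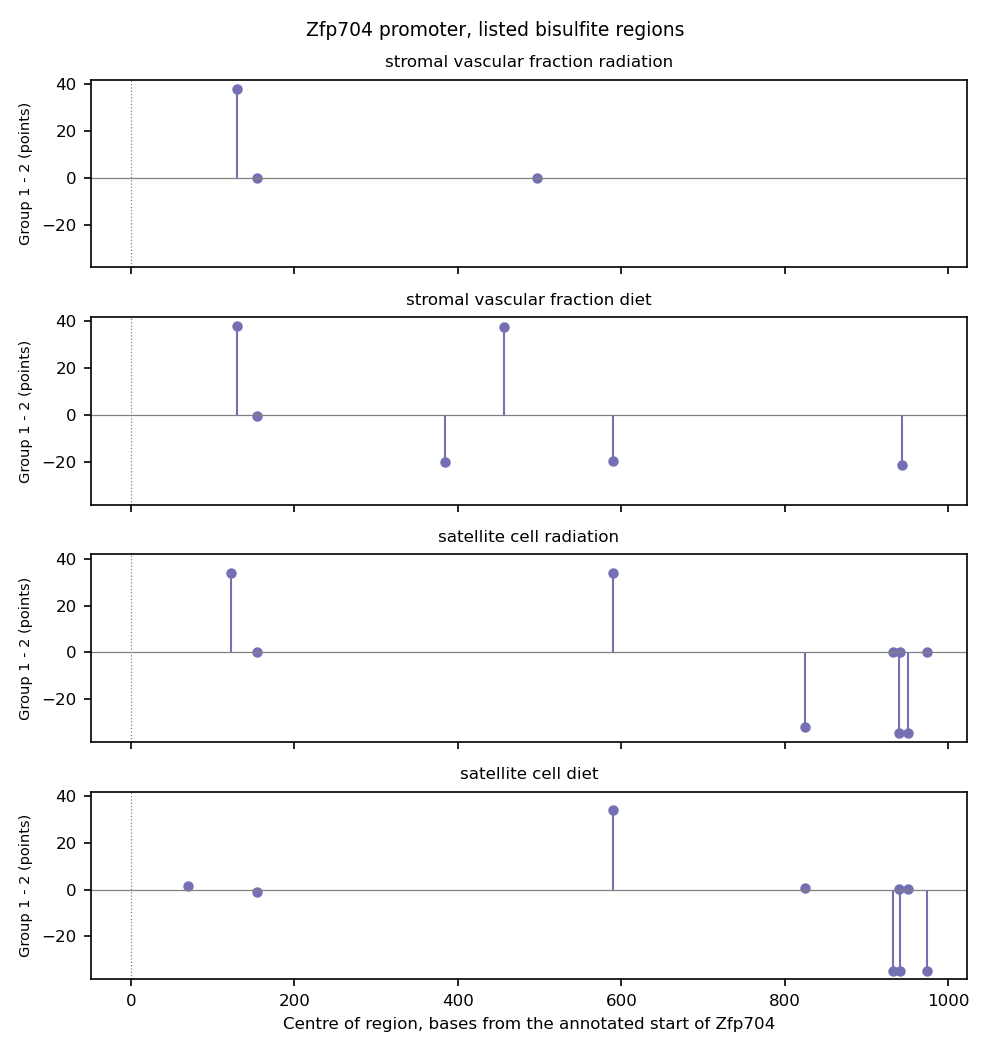
Difference in methylation (group 1 minus group 2, percentage points, y axis) of the regions listed at Zfp704, by distance of the region's centre from the annotated start in bases (x axis), for radiation and diet in both cell types. Regions of both signs and regions near 0 lie within 1 kb of the start, with values at -34.6 points in both satellite cell panels.

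Zfp395 had 10 regions in satellite cells and 1 in the stromal vascular fraction. The region over its start, chr14:65358647-65358727, stood at 37.2 points for radiation and 36.4 for diet in the authors' deposited table. Upstream, chr14:65358524-65358635 stood at -33.9 points for radiation. The Zfp395 and Zfp704 promoters thus each held regions of both signs, and no single direction of methylation can be set beside the rise of their RNA. Of the 16 RNA members, 7 had a satellite cell region (43.8%), against 38.1% of all 1695 genes listed for RNA. The others of the 7 were Zfp131, Zfp322a, Zfp36l2, Zfp52 and Zfp618. Zfp185, Zfp169, Zfp583, Zfp691 and Zfp110 had no region in any bisulfite table.

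The members with the most regions were Zfp592 with 34, Zfp704 with 30, Zfp219 and Zfp609 with 29 each, Zfp69 with 21 and Zfp131 with 18. Zfp592 is a partner of the ZMYND8 chromatin complex in human cells, Zfp219 is known as a cofactor of Sox9 in cartilage, and Zfp609 binds the cohesin loader Nipbl in neural progenitors. At Zfp592, 10 regions between chr7:80993276 and 80993391 alternated with group 1 on the higher side. Those with a large difference stood between 30.1 and 34.2 points and those between them from -1.18 to -0.0372 points for radiation in satellite cells, in the authors' deposited table. Zfp609 alternated over 16 regions in the same table, between 1.07 to 1.91 points and -30.7 to -26.5 points, in the authors' deposited table. Zfp609 and Zfp69 were listed in satellite cells alone, and all 29 and 21 of their regions stood there.

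Of the 169 members, 45 were in 1 table, 57 in 2, 31 in 3, 18 in 4, 14 in 5 and 4 in all 6. The same counts were not made over all gene symbols, and contrasts of a cell type share libraries. They are therefore no result about the members. Those in all 6 were Zfp704, Zfp787, Zfp524 and Zfp618. In 5 tables were Zfp131, Zfp335, Zfp516, Zfp777, Zfp36l2, Zfp354c, Zfp367, Zfp503, Zfp827, Zkscan17, Zfp61, Zfp623, Zfp710 and Zfp91. In 4 tables were Zfp592, Zfp219, Zfp385a, Zfp316, Zfp462, Zfp81, Zscan29, Zfp513, Zfp281, Zfp143, Zfp276, Zfp711, Zfp184, Zfp277, Zfp280b, Zfp398, Zfp638 and Zfp956. Among these are Zfp143, a promoter-bound factor of chromatin loops, Zfp281, a pluripotency factor, and Zfp638, which promotes fat cell differentiation in mice.

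Members in both cell types can be set side by side by position. At Zfp524, chr7:5015483-5015582 stood at 38.1 points for radiation in the stromal vascular fraction, and an overlapping satellite cell region (chr7:5015388-5015639) stood at -0.217 in the authors' deposited table. At Zfp787 the region chr7:6155589-6155658 was listed for radiation in both cell types, at -0.112 points in the stromal vascular fraction and -34.5 in satellite cells. The region over the start of Zfp787 stood at 37.9 points for radiation and 37.9 for diet in the stromal vascular fraction, and at 32.7 and 33.8 over a wider stretch in satellite cells, in the authors' deposited table. At Zfp61, chr7:24299589-24299638, a part of the capitals in the printed window, stood at 35.1 points for radiation and 34.7 for diet in the stromal vascular fraction. The whole of the capitals, chr7:24299589-24299668, stood at -33.8 and 0.120 points in satellite cells, in the authors' deposited table. At Zfp618 the region over the start stood at -20.4 points for diet in the stromal vascular fraction, by the authors' deposited table. No test of a difference between cell types can be made from these tables.

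Both cell types listed 57 members, which is 55.9% of the 102 in the stromal vascular fraction and 46.0% of the 124 in satellite cells. For all gene symbols those shares were 53.1% and 48.5%. At identical positions, 3 member regions were listed for radiation in both cell types and 5 for diet. Identical positions were not counted over all regions, so these numbers are no result about the members. Zfp131 at chr13:119791154-119791264 stood at 38.1 points in the stromal vascular fraction and -24.1 in satellite cells for diet. Zfp385a at chr15:103323396-103323413 stood at -17.7 and -27.1. Since the groups are not named, it is not known whether group 1 was the same treatment in both cell types.

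Of the 27 KRAB partner genes, 22 were in at least 1 bisulfite table (81.5%), against 33.5% of 21896 protein-coding RefSeq genes. In satellite cells 18 of 27 had a region for radiation and 18 for diet (66.7% each), against 19.6% and 18.9% of protein-coding genes. In the stromal vascular fraction 9 and 10 did (33.3% and 37.0%), against 13.6% and 18.4%. How many of either could be seen by the assay is unknown, and these differences were not tested.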

How the data were processed

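The members and the gene lists were chosen with earlier results of these data known. A gene with such a name is not reported here. Per the submitters' processing notes, the build was mm10. For bisulfite libraries the authors named Bismark 0.14.4, Bowtie2 2.2.6, cutadapt 1.8.3 and Trim Galore 0.4.0. For captured DNA the authors named Picard, Bowtie2, Trimmomatic, edgeR and featureCounts, and for RNA the authors named edgeR, featureCounts, TopHat2 and Trim Galore, with CASAVA throughout. Settings were not stated in the sources used. The authors deposited comparison tables only. Per the file headers, RNA tables give log2 fold change, log2 CPM, a likelihood ratio (a score), a p-value and an adjusted p. The deposited MBD columns hold the same kinds of value with notes written beneath, so they were treated as a score, and note lines were dropped. Per the file headers, RRBS tables give a median difference in methylation between group 1 and group 2 (a score, printed in percentage points), and a median p-value, which was not read as spread between animals. Levels of the unnamed groups were not used.

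The number of tested genes, 12371, was recovered as adjusted p times rank over p. In the 13 genes of all 3 irradiation tables, the value over both diets equalled the sum of the diet effects (largest deviation 2.66e-15), so it was divided by 2. The approximate SE is the absolute log2 fold change over the square root of the likelihood ratio, and treats that ratio as a squared normal deviate. RNA calls used an adjusted p of 0.05, and for MBD and RRBS every listed region was counted, since their p-values are not adjusted. The design had expected adjusted ones. No refit was possible. The recovery of the number of tests was tested on simulated data. Text names, for RNA, every member under 0.05 and the 5 highest and 5 lowest up to 0.1, for MBD every member outside exons and the 5 highest and 5 lowest exon entries, and for RRBS the 3 highest and 3 lowest per table, members with most regions or in 4 or more tables, and examples of positions shared by contrasts. Genes named beyond these, such as Zfp598, Zfp609 and Zfp385a positions, were chosen after their values were seen. Promoter sequences are from RefSeq (GRCm38.p6). Tables were handled with Python and pandas. Alternatives changed the threshold, counted 1 region per gene or kept symbols starting with Zfp. Depth is unknown.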

Additional observations from a re-analysis of the deposited data

How the results depend on the processing

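Of 42 alternative counts, 26 stayed within 1.5 times the count reported and 16 did not. For RNA over both diets, the 7 members became 16 at an adjusted p of 0.1 and 0 with a Bonferroni limit of 0.05, and the chow count went from 0 to 1 at 0.1. An absolute log2 fold change of at least 1 left 1 member promoter, 2 shores and 5 exon entries in the capture tables. A difference of at least 10 percentage points left 36, 108 and 17 regions for radiation, diet and interaction in the stromal vascular fraction, and 128, 104 and 5 in satellite cells, fewer by construction. Counting 1 region per gene gave 75 and 92 for radiation and diet in the stromal vascular fraction and 104 and 99 in satellite cells. Leaving out Zkscan and Zscan genes moved no count by more than 1.5 times. No paired analysis was possible because the tables hold comparison statistics and no values of single libraries, and for the same reason no library could be left out and no other normalization or filter on low counts tried. Without depth, no counting error can be given, and RRBS differences near 0 cannot be told from 0.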
